A study of Mus musculus with 12 samples.

Results

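The anterior and the posterior parts of control mouse embryos were compared at E7.75, the day on which the head folds begin to form. The members are the 6 control arrays of the series, 3 from pools of anterior parts and 3 from pools of posterior parts, out of 12 arrays in all. They were chosen by their labels, and a probe was kept where its detection p-value was under 0.05 on 3 or more of these 6 arrays. This kept 15534 of 30344 probes, under 10502 gene symbols. Anterior control parts and posterior control parts came from Lhx1+/flox; Meox2+/Cre embryos between the early bud and the early head-fold stage. Each of the 3 biological replicates per group was a pool of 5 dissected parts, and total RNA was labelled with biotin for Illumina bead arrays. The controls carry Cre and a conditional Lhx1 allele too. Cre made from the Meox2 locus acts in the epiblast, so epiblast cells of these controls keep a single working copy of Lhx1, a LIM homeobox gene that the head requires. The other 6 arrays of the series hold the same parts of Lhx1epiCKO embryos (Lhx1-/flox; Meox2+/Cre). All samples, posterior ones included, carry the tissue label embryonic head. Since the samples are bulk tissue, fewer cells of a type and less RNA per cell cannot be told apart.

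At this stage the mouse embryo is a cup of epiblast-derived layers. Its anterior side is turning into neural plate, head mesoderm, foregut endoderm and heart precursors, while the primitive streak at the posterior end still releases mesoderm and feeds the allantois, the future umbilical stalk. WNT, FGF and NODAL ligands made at the streak promote posterior fates, and inhibitors secreted anteriorly hold these signals back. Transcription factors of head and tail are the best known readouts of this axis. Many other kinds of gene, for adhesion, guidance, hormones, vesicles, glycans and metabolism, are active in the same tissues.

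The 3 anterior control arrays detected between 15737 and 16238 of all probes and the 3 posterior control arrays between 14486 and 14869, with no overlap. The same order held in Lhx1epiCKO embryos, with 15416 to 16091 probes on anterior and 14243 to 14667 on posterior arrays. The part of this difference in the results below was not tested. On the anterior control arrays the Lhx1 probe read 8.13, 8.25 and 8.44, against 8.54, 6.90 and 8.35 on the posterior ones (log2), a difference of 0.34 ± 0.31 (adjusted p = 0.628 in limma) that became -0.17 when posterior control replicate 2 (as labelled) was left out. In Lhx1 the value of 6.90 goes against the label of that array, since the posterior Lhx1epiCKO arrays read 6.85 to 7.30. Of the 3 posterior control arrays this one had the highest summed signal of the posterior markers given below, 14.74 against 14.32 and 14.18 (log2). Its summed signal of the anterior markers was the lowest, 9.05 against 9.56 and 9.51. What sets this array apart was not tested. Xist, given after its values were seen, read 7.72 on that array and 10.08 and 9.83 on the other posterior control arrays. On the posterior Lhx1epiCKO arrays Xist read 8.24, 6.71 and 9.06. Its difference between the control parts was not called (1.01 ± 0.43, adjusted p = 0.242). The Y-linked gene Eif2s3y, also given after its values were seen, read 8.93 on the array labelled posterior control replicate 2. It read 8.33 and 7.91 on the other posterior control arrays. Xist and Eif2s3y follow the sex of the pooled embryos and do not read the Lhx1 genotype. The array labelled posterior control replicate 2 also had 35 probes more than 1 log2 unit from the other posterior control arrays, the most of any control array. The count of called probes is therefore given with and without it, and so is each list count that it moved by over 1.5 times. The regional labels were borne out by their markers: Otx2 and Lhx5 were called higher in anterior control parts, and T, Cdx1, Cdx2, Hoxb1, Evx1 and Tbx6 were each called lower there. Of the other anterior markers, Hesx1 was not called and Six3 was above background on none of the 6 arrays.

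Limma called 734 probes at a Benjamini-Hochberg adjusted p under 0.05, which is 4.73% of those tested. Of these, 360 were higher (2.32%) and 374 lower (2.41%) in anterior control parts. With each gene represented by its brightest probe, 580 of 10502 genes were called (5.52%), 290 higher (2.76%) and 290 lower (2.76%). The median difference over all kept probes was 0.02 on the log2 scale. The large differences lay mostly on the posterior side: 46 probes were higher and 117 lower by at least 1 log2 unit, and 7 were higher and 28 lower by at least 2. The values of the anterior and the posterior arrays overlapped for 1 of the 734 called probes. With 3 arrays per part a call itself favours such separation. Where values of called genes are said below to be apart, this therefore adds nothing to their calls. Without the array labelled posterior control replicate 2 the count was 550, and over the 6 fits that each left out 1 array it ran from 427 (without anterior control replicate 2) to 638, with 345 probes called in every such fit. It was 476 without anterior control replicate 1, and the higher calls numbered 199, 177 and 222 without anterior control replicates 1, 2 and 3. Precision is limited by the number of arrays, and levels are not compared between probes.

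**Figure D1:**
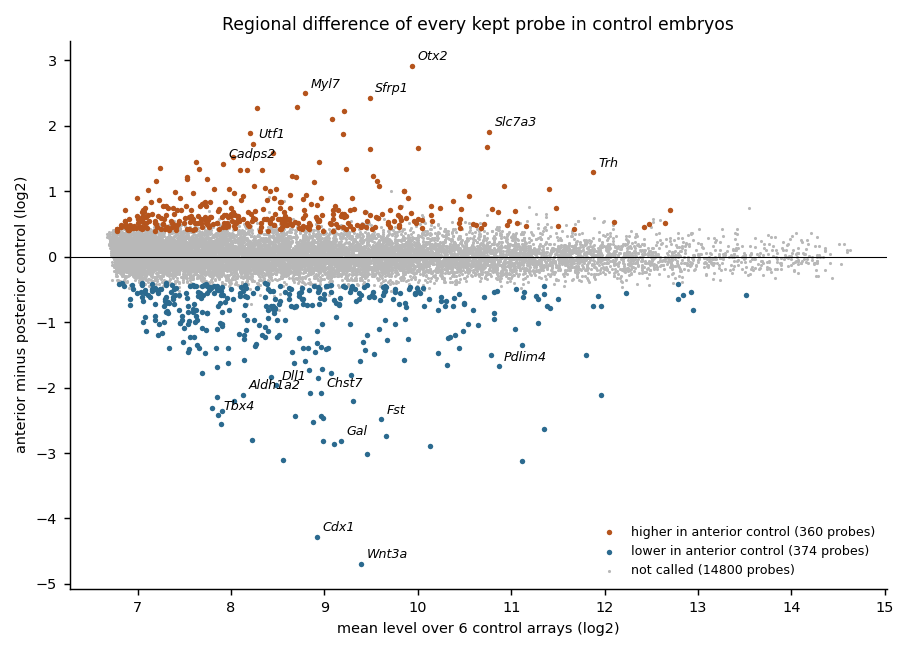
Difference between anterior and posterior control parts (log2, y axis) against the mean level over the 6 control arrays (log2, x axis) for each of the 15534 kept probes. Orange points are the 360 probes called higher and blue points the 374 called lower in anterior control parts. The blue points reach -4.69 (Wnt3a), further from 0 than the orange points, which reach 2.92 (Otx2).

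Function was described with 41 lists of genes. Each count below is read against the share of all genes called, 2.76% in either direction. Of 30 kept transcription factors of the streak, mesoderm and tail, 22 were lower and 0 higher in anterior control parts, and of 20 kept factors of the head, neural plate and ectoderm, 10 were higher and 3 lower. Secreted signals and their inhibitors (36 kept) had 6 higher and 15 lower members. Among the lists with mostly anterior calls were neuronal cytoskeleton and vesicle genes (9 higher and 2 lower of 38), epithelial junctions and keratins (8 higher and 0 lower of 37), definitive endoderm (8 and 1 of 29) and heart muscle (5 and 1 of 16). Among those with mostly posterior calls were the NOTCH pathway (0 higher and 7 lower of 22), MAP kinase feedback (1 and 8 of 27), the allantois and extraembryonic mesoderm (2 and 8 of 28) and retinoid metabolism (0 and 4 of 15). No kept member was called among 37 mitochondrial respiration genes, 31 ribosomal protein genes and 25 genes of metal, vitamin and nucleoside transport, although 1 mitochondrial gene was higher without posterior control replicate 1. Counts that moved by over 1.5 times when 1 array was left out are marked where the list is described, and counts of 1 or 2 genes often did.

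**Figure D2:**
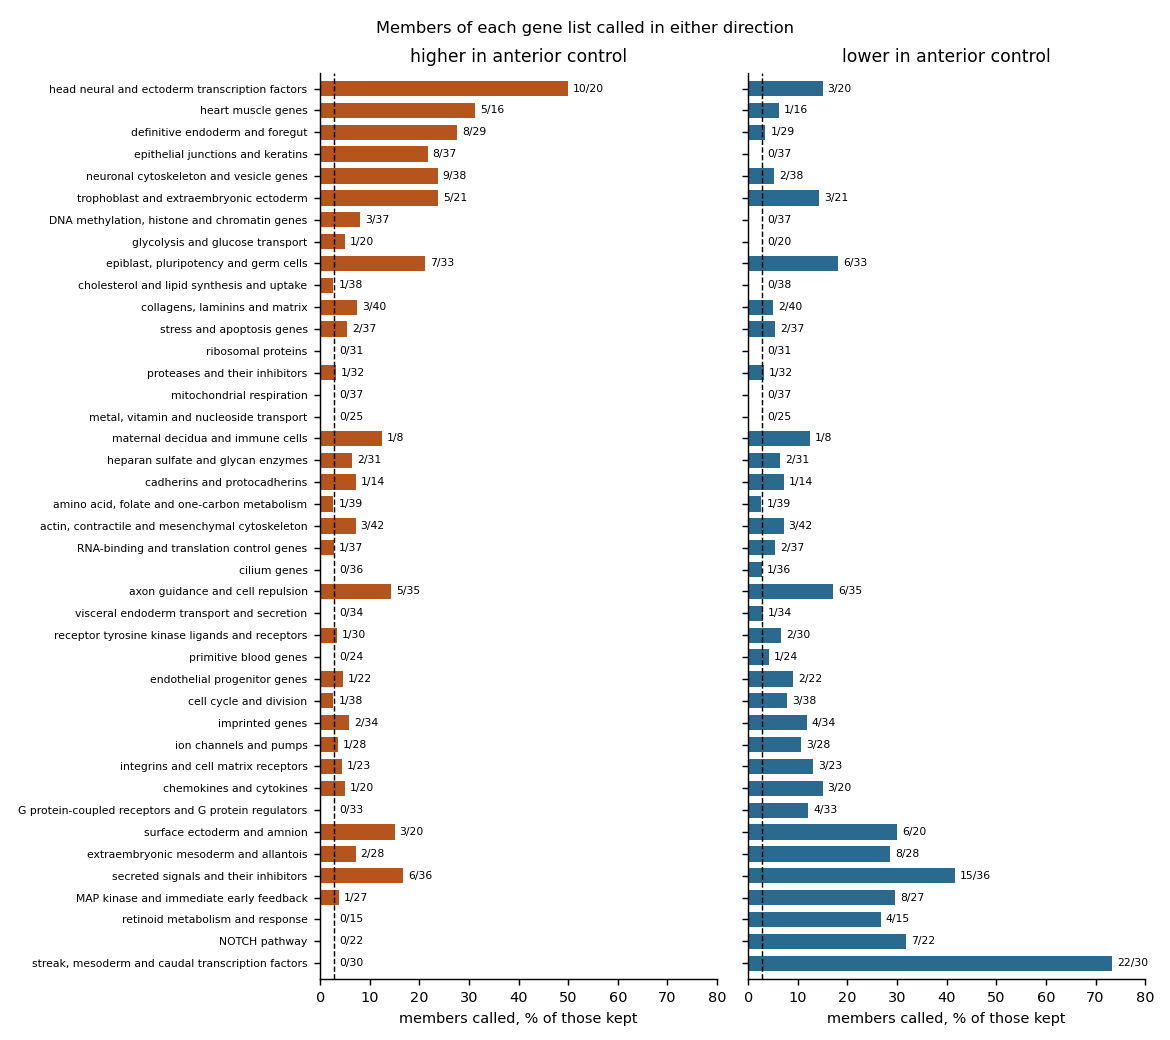
Share of the kept members of each gene list called higher (left panel) or lower (right panel) in anterior control parts, in percent (x axes), with the counts beside the bars. The dashed lines mark the share of all genes called in that direction, 2.76%. Streak and tail transcription factors have the longest bar on the right, 22 of 30, and head and neural transcription factors the longest on the left, 10 of 20.

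Among the patterning transcription factors, Otx2, a homeobox gene needed for the forebrain and midbrain, read 11.20, 11.40 and 11.59 on the anterior and 8.79, 7.94 and 8.69 on the posterior control arrays. It was 7.59-fold higher in anterior control parts (adjusted p = 5.56e-07). Foxd4 and Pou3f1, factors of the early neural plate, were higher by 2.23 ± 0.18 and 2.11 ± 0.18 (log2, SE, n = 3 per group), and Irx3 and Irx5, a homeobox pair expressed in neural tissue, by 1.68 ± 0.23 and 1.65 ± 0.17. On the other side Cdx2, a caudal homeobox gene, read 9.35, 9.39 and 9.94 on the anterior and 12.66, 13.11 and 12.26 on the posterior control arrays, 8.67-fold lower in anterior control parts. Evx1, a homeobox gene of the streak, read 8.47, 8.81 and 8.74 on the anterior and 11.58, 11.78 and 11.37 on the posterior arrays, a difference of -2.90 ± 0.13. Cdx1, a relative of Cdx2, was above background on 1 of the 3 anterior control arrays and differed by -4.28 ± 0.24, a size that rests on anterior levels mostly not above background. Hoxa5 was not above background on any anterior control array, with means of 6.61 on the anterior and 9.17 on the posterior arrays, and was at least 5.23-fold lower in anterior control parts (adjusted p = 1.27e-07). Gbx2, which marks the future hindbrain and the tissue behind it, stood on the head and neural list and was lower in anterior control parts (-2.11 on the log2 scale), with 11.36, 10.45 and 10.89 on the anterior and 13.15, 13.02 and 12.88 on the posterior control arrays. Of the 22 lower streak and tail factors 21 kept the call in all 6 fits that left out 1 array, and of the 10 higher head factors 9 did. Of the 3 lower head factors 1 did, and 1 was called without the array labelled posterior control replicate 2. Without posterior control replicate 3, 1 streak and tail factor was higher.

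Secreted inhibitors were found among the genes higher anteriorly and ligands among the genes lower anteriorly. Sfrp1, which binds WNT proteins outside the cell, read 11.03, 10.64 and 10.44 on the anterior and 8.34, 7.87 and 8.60 on the posterior control arrays (5.40-fold higher, adjusted p = 1.65e-06). Cer1, an inhibitor of NODAL, BMP and WNT made by anterior endoderm, read 9.45, 9.45 and 9.34 on the anterior and 7.13, 6.91 and 7.40 on the posterior arrays (4.81-fold higher). Shisa2, whose product keeps WNT and FGF receptors from the cell surface, was higher by 2.29 ± 0.13. All 3 were apart on the 6 arrays. Shh, the signal of the notochord and prechordal plate, read 8.77, 7.98 and 8.25 on the anterior and 7.11, 7.06 and 7.25 on the posterior arrays, 2.29-fold higher, while its other kept probe differed by 0.16 and was not called.

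Of the 15 lower members 9 were WNT or FGF ligands, 6 of 7 kept WNT and 3 of 6 kept FGF ligands of the list. Wnt7b, which stands on the trophoblast list and is described below, is outside this count and was called higher (1.02). Wnt3a, a ligand of the streak and tail bud, read 7.15, 6.83 and 7.15 on the anterior and 11.73, 11.97 and 11.52 on the posterior control arrays, 25.9-fold lower in anterior control parts and the largest difference of any probe (adjusted p = 4.12e-10). Its anterior values lie near the array medians of 6.81 to 6.83, so the size of this difference rests on dim anterior levels. Wnt8a differed by -2.47 on the log2 scale, Fgf8, the main FGF of gastrulation, by -1.85 and Fgf17 by -2.20, although a dim second Fgf17 probe differed by -0.35 and was not called. The inhibitors were not all anterior. Fst, which traps activins and BMPs, read 8.40, 8.41 and 8.28 on the anterior and 10.67, 11.03 and 10.84 on the posterior arrays, 5.58-fold lower in anterior control parts. Of further members chosen after their values were seen, Rspo3, which sharpens the WNT response, read 8.51, 8.74 and 8.90 on the anterior and 10.15, 10.17 and 10.13 on the posterior arrays, a difference of -1.43 ± 0.12. Notum, an enzyme that inactivates WNT proteins by removing their lipid, differed by -1.39 ± 0.12, with a second probe at -0.39 that was not called, and Wnt5b, a ligand of the non-canonical branch, by -1.62 ± 0.14. Lefty2, a NODAL inhibitor, was not called: it read 7.67, 8.92 and 8.35 on the anterior and 9.0, 8.80 and 9.47 on the posterior arrays, a difference of -0.78 ± 0.25 (adjusted p = 0.105), and was called without anterior control replicate 2 (adjusted p = 0.00664) and with the replicate block (adjusted p = 0.025). Of the 6 higher members 4, and of the 15 lower members 13, kept the call in every fit without 1 array.

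Of 7 kept Frizzled genes, which encode WNT receptors, 3 were higher and 1 was lower in anterior control parts, a family counted after its values were seen. Fzd5, a receptor of anterior neural tissue and the eye field, read 10.37, 10.20 and 9.85 on the anterior and 8.41, 8.20 and 8.18 on the posterior control arrays, 3.67-fold higher, with a dimmer probe at 0.20 that was not called. Fzd10 read 7.72, 7.51 and 7.80 on the anterior and 10.41, 10.54 and 10.65 on the posterior arrays, 7.25-fold lower in anterior control parts. Fzd5 and Fzd10 both stand among the 20 probes of largest difference in their direction, which were drawn from called probes without overlap between the parts. Axin2, a feedback inhibitor switched on by WNT signalling, and Tcf7l1, a repressor of WNT target genes, were chosen after their values were seen. Axin2 differed by -1.25 on the log2 scale (9.19, 9.16 and 9.46 on the anterior, 10.75, 10.26 and 10.53 on the posterior arrays). Tcf7l1 was higher by 1.04 ± 0.16 with its brightest probe, was not called with its other probe (0.35), and lost the call when all 12 arrays were fitted together (adjusted p = 0.0715) but not when posterior Lhx1epiCKO replicate 3 was left out of that fit (adjusted p = 0.000298).

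**Figure D3:**
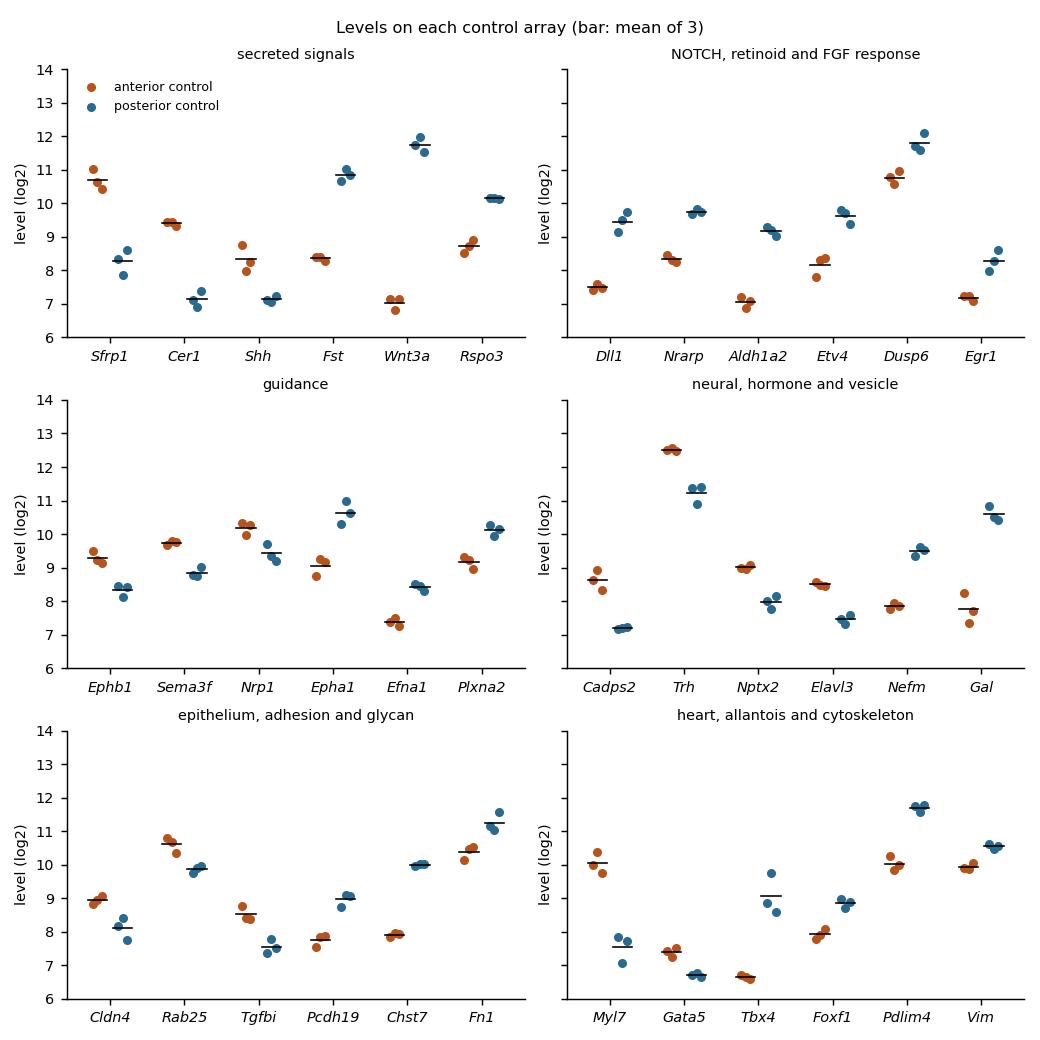
Levels (log2, y axes) of 36 genes on each control array, with anterior control arrays in orange on the left of each pair, posterior control arrays in blue on the right, and a bar at the mean of 3. Every gene shown was called, and in each the anterior and the posterior points are apart. The differences run from -4.69 (Wnt3a) to -0.61 (Vim) and from 2.50 (Myl7) to 0.69 (Gata5).

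NOTCH genes were lower at the anterior end, in those members that differed. NOTCH receptors read ligands on neighbouring cells, and the pathway times the segmentation of the body axis. Dll1, a ligand of the presomitic mesoderm, read 7.41, 7.61 and 7.47 on the anterior and 9.15, 9.50 and 9.73 on the posterior control arrays, 3.90-fold lower in anterior control parts (adjusted p = 1.22e-06). Nrarp, a feedback inhibitor switched on by NOTCH itself, read 8.46, 8.32 and 8.25 on the anterior and 9.67, 9.82 and 9.73 on the posterior arrays (2.64-fold lower). Notch4, a receptor known from endothelium, differed by -0.74 ± 0.11 and Dner, an atypical ligand, by -0.67 ± 0.11. Of the other kept members 15 of 22 were not called, among them Notch3 at 0.29 ± 0.10 and Dll3 at -0.35 ± 0.11. The count of lower members fell to 4 without anterior control replicate 1 or 2, and 4 kept the call in all fits without 1 array.

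Retinoic acid, made from vitamin A, patterns the trunk and hindbrain. Aldh1a2, the enzyme that makes it in trunk mesoderm, read 7.22, 6.89 and 7.09 on the anterior and 9.30, 9.20 and 9.03 on the posterior control arrays, 4.31-fold lower in anterior control parts (adjusted p = 1.47e-07), and its second probe differed by -1.45. The receptor gene Rxrg differed by -0.71 on the log2 scale. The values of the Aldh1a2 probe above did not overlap between the parts. Cyp26a1, which destroys retinoic acid, was not called, with 9.59, 9.07 and 9.13 on the anterior and 9.35, 8.81 and 8.34 on the posterior arrays (0.43 ± 0.21, adjusted p = 0.314). A further called member, Rarg, lost the call without 4 of the 6 arrays in turn (adjusted p up to 0.247). Without posterior control replicate 1, 1 member of the list was higher.

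Of 27 kept genes of MAP kinase feedback and the immediate early response, which ERK signalling downstream of FGF receptors can switch on, 8 were lower, 1 was higher and 18 were not called. Etv4, an ETS factor, read 7.81, 8.32 and 8.37 on the anterior and 9.79, 9.70 and 9.39 on the posterior control arrays (2.74-fold lower, adjusted p = 5.86e-05). Dusp6, the phosphatase that turns ERK off, read 10.78, 10.57 and 10.96 on the anterior and 11.70, 11.60 and 12.09 on the posterior arrays (2.03-fold lower). Il17rd, a membrane inhibitor of FGF signalling, differed by -1.08 ± 0.11. Egr1, an immediate early gene, read 7.23, 7.23 and 7.08 on the anterior and 7.99, 8.28 and 8.61 on the posterior arrays, 2.17-fold lower. Egr1 is also a marker of handling. Over the 4 handling markers (Egr1, Fos, Hspa1a and Hspa1b) the summed signal was 8.85, 8.87 and 8.83 on the anterior and 9.22, 9.38 and 9.49 on the posterior arrays (log2), and its part in these genes was not tested. Fos was detected on 1 anterior and 2 posterior arrays and was not called (-0.19 ± 0.14), and neither heat shock gene was kept. The receptor gene Fgfr2 went the other way, with 11.51, 11.19 and 11.69 on the anterior and 10.47, 10.36 and 10.31 on the posterior arrays (2.12-fold higher by its brightest probe), although 1 of its 3 kept probes was not called (0.14). Dusp6 was not called when all 12 arrays were fitted together (adjusted p = 0.135) and was called when posterior Lhx1epiCKO replicate 3 was left out of that fit (adjusted p = 0.0011). Of the 8 lower members 5 kept the call in every fit without 1 array, and 5 were called without anterior control replicate 2 or posterior control replicate 2 (as labelled) or 3. The higher count was 2 without posterior control replicate 2 (as labelled).

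Promoters were searched for short motifs because the streak and tail genes differed as a group, and those of the 6 called genes of largest difference that hold an octamer are shown. The octamer, ATGCAAAT or ATTTGCAT on the other strand, is the motif that POU-family factors bind. Sequences are the 250 bases before and 50 after the start of the first listed transcript, from RefSeq on GRCm38.p6, 5′ to 3′ on the gene's own strand, with the octamer in capitals.
Cdx2 (chr5:147307200-147307499, minus strand): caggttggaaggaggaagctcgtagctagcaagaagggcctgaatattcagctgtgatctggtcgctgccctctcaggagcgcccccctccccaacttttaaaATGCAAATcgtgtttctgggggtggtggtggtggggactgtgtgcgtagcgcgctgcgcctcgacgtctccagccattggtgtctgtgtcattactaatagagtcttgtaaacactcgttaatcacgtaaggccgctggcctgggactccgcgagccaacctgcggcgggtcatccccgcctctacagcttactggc
Evx1 (chr6:52313248-52313547, plus strand): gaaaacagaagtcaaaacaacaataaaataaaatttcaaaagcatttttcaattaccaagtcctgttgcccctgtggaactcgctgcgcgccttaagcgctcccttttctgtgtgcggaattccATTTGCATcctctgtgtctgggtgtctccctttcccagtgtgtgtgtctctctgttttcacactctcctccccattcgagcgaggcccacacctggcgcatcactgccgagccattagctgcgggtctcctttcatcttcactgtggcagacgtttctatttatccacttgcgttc
Aldh1a2 (chr9:71215539-71215838, plus strand): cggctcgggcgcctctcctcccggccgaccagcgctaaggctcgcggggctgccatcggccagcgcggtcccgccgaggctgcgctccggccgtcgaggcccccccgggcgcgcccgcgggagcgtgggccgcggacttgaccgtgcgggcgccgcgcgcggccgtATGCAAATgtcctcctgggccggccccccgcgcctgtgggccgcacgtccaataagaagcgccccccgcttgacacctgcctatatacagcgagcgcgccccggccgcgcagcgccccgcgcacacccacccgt
Dll1 (chr17:15375774-15376073, minus strand): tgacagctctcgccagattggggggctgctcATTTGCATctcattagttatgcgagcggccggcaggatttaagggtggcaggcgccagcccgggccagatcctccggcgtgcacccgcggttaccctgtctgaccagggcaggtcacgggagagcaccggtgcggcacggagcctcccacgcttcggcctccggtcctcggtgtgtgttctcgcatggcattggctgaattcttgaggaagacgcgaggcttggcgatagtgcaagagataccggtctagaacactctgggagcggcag
Nrarp (chr2:25180508-25180807, plus strand): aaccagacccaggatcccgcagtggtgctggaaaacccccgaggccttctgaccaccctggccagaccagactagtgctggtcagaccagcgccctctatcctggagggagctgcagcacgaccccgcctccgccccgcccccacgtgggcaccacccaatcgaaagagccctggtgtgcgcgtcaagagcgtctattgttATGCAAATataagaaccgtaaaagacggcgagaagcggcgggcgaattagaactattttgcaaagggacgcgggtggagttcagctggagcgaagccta
Cdx4 (chrX:103321148-103321447, plus strand): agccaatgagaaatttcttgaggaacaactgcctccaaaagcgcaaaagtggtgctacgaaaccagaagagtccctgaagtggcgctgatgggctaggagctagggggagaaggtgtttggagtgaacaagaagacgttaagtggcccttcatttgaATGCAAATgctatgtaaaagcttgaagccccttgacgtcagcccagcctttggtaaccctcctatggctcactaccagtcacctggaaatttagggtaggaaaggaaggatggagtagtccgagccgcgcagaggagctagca
The octamer was present in 14 of 213 promoters of lower genes (6.57%), 4 of 227 promoters of higher genes (1.76%), 117 of the 8438 promoters of all genes tested (1.39%) and 1.75% of the 27025 promoters listed. It was 1 of 22 motifs searched on both strands, was chosen for printing after the shares were seen, and was given no test. A match is a description of these letters and not a site in use. Of other motifs, the ETS motif CCGGAAG was in 5.29% of higher, 7.98% of lower and 18.3% of all tested genes' promoters, and the TCF/LEF motif CTTTGAT in 1.32%, 2.82% and 2.61%. The 6 genes shown had differences from -3.12 (Cdx2) to -1.17 (Cdx4) and include a caudal homeobox pair, the streak factor Evx1, the retinoic acid enzyme Aldh1a2 and the NOTCH genes Dll1 and Nrarp. Cdx4, chosen after its values were seen, was above background on no anterior control array, with means of 6.67 on the anterior and 7.83 on the posterior arrays, and was at least 2.08-fold lower in anterior control parts (adjusted p = 5.88e-05).

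Guidance genes, which steer migrating cells and axons by attraction and repulsion, differed in both directions: 5 of 35 kept members were higher and 6 lower in anterior control parts. Among EPH receptors and ephrins, Ephb1 read 9.49, 9.22 and 9.13 on the anterior and 8.45, 8.13 and 8.43 on the posterior control arrays (1.93-fold higher, adjusted p = 0.000512). The receptor Epha1 read 8.75, 9.27 and 9.16 on the anterior and 10.30, 10.98 and 10.63 on the posterior arrays (2.99-fold lower), with 1 of its 4 kept probes not called (-0.41). Efna1, a ligand of EPHA receptors, read 7.39, 7.50 and 7.25 on the anterior and 8.50, 8.44 and 8.30 on the posterior arrays (2.05-fold lower). An EPHA receptor and a matching ligand were therefore both lower anteriorly, and Epha2 differed likewise by -0.85 ± 0.11. Of semaphorins and their receptors, the ligand gene Sema3f (0.89 ± 0.11) and the receptor gene Nrp1 (0.76 ± 0.14) were higher, and Plxna2, the signalling chain of semaphorin receptors, was lower, at -0.96 on the log2 scale. The SLIT receptor gene Robo1 was higher by 0.66 ± 0.11 and the netrin receptor gene Unc5c lower, at -0.79, 1 of whose 3 probes was not called (-0.09). Robo1 was not called in the fit of all 12 arrays (adjusted p = 0.115) and was called in that fit without posterior Lhx1epiCKO replicate 3 (adjusted p = 0.00229). Of the 5 higher members 4, and of the 6 lower members 6, kept the call in every fit without 1 array.

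Genes known from nerve cells and secretory cells were called well before nerve cells form. Cadps2, which primes dense-core vesicles for release, read 8.63, 8.92 and 8.33 on the anterior and 7.18, 7.21 and 7.22 on the posterior control arrays (2.68-fold higher, adjusted p = 2.12e-05). Trh, the precursor of thyrotropin-releasing hormone and a marker of early foregut endoderm, read 12.50, 12.58 and 12.48 on the anterior and 11.37, 10.91 and 11.41 on the posterior arrays (2.45-fold higher). Nptx2, a secreted protein that gathers glutamate receptors at synapses, was higher by 1.04 ± 0.12, and Elavl3, a neuronal RNA-binding protein, by 1.04 ± 0.11. All 4 were apart on the 6 arrays. Gal, the precursor of the neuropeptide galanin, lay on no list and was among the 20 probes with the largest negative difference. It read 8.25, 7.36 and 7.70 on the anterior and 10.83, 10.51 and 10.41 on the posterior arrays, 7.02-fold lower in anterior control parts (adjusted p = 7e-07). Nefm, a neurofilament chain, read 7.76, 7.95 and 7.86 on the anterior and 9.35, 9.60 and 9.51 on the posterior arrays, 3.11-fold lower, and all 3 of its probes were called lower. Syt11, a synaptotagmin, was higher by 0.85 ± 0.14 but lost the call with the mean of its probes (adjusted p = 0.0557). Of the 9 higher members 5, and of the 2 lower members 1, kept the call in every fit without 1 array, and the higher count was 6 without anterior control replicate 3 or posterior control replicate 1 or 2 (as labelled). The lower count was 1 without posterior control replicate 1.

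Genes of epithelial junctions were called in the anterior direction alone in the main fit, 8 of 37 kept members, against 2.76% of all genes. The higher count was 5 where detection on all 6 arrays was required. It was 4 with all 12 arrays fitted together, and 9 in that fit without posterior Lhx1epiCKO replicate 3. In this last fit, and with cyclic loess scaling, array weights or an intensity trend in the variance prior, 1 member was lower. Cldn4, a tight junction claudin, read 8.83, 8.94 and 9.06 on the anterior and 8.16, 8.40 and 7.74 on the posterior control arrays (1.79-fold higher, adjusted p = 0.00445). Rab25, which sorts membrane proteins in epithelial cells, read 10.80, 10.69 and 10.34 on the anterior and 9.75, 9.89 and 9.97 on the posterior arrays (1.67-fold higher). Cldn3 was above background on no posterior control array, with means of 7.45 on the anterior and 6.70 on the posterior arrays, and was at least 1.52-fold higher in anterior control parts (adjusted p = 0.00204). Marveld3, another tight junction protein, was higher by 0.63 ± 0.11. These 4 kept the call in every fit without 1 array, and the other 4 called members did not, so that the count fell to 4 without any of the 3 anterior control arrays and to 5 without posterior control replicate 3. The differences were small beside those of the patterning genes, none above 0.84. Of 14 kept cadherins and protocadherins 1 was higher and 1 lower. Celsr2, a cadherin of planar cell polarity, was higher by 0.60 (adjusted p = 0.0102) and lost the call without posterior control replicate 1. Pcdh19, a protocadherin of somites and brain, was lower with 7.53, 7.85 and 7.87 on the anterior and 8.75, 9.10 and 9.06 on the posterior arrays (2.33-fold, adjusted p = 6.56e-05). Cdh2, the cadherin that mesoderm takes up after gastrulation, was not called (-0.23 ± 0.13).

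Of definitive endoderm and foregut genes, 8 of 29 kept members were higher and 1 was lower in anterior control parts. The list shares Otx2, Cer1, Trh and Cdx2 with genes described above. Hhex, a homeobox gene of the anterior endoderm, read 8.99, 8.87 and 8.87 on the anterior and 8.17, 8.37 and 8.15 on the posterior control arrays (1.60-fold higher, adjusted p = 0.00211). Rab15, a small GTPase of endosomes, was higher by 0.73 ± 0.14. Foxa2, needed for node and endoderm, was not called, with 7.65, 7.98 and 7.83 on the anterior and 7.61, 7.52 and 6.99 on the posterior arrays (0.44 ± 0.16, adjusted p = 0.144). The 8 visceral endoderm markers were detected on all 6 arrays and none was called, and their summed signal ran from 15.19 to 15.33 on the anterior and from 15.28 to 15.47 on the posterior arrays (log2). Of 34 kept genes of visceral endoderm transport and secretion, Cyp2s1, a cytochrome P450, was the only one called (-0.63 ± 0.11), although 3 were higher without posterior control replicate 1 and 2 lower without the array labelled posterior control replicate 2. The definitive endoderm genes that kept the call in every fit without 1 array numbered 6 of the 8.

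Matrix, adhesion and glycan genes gave few calls. Of 40 kept collagen, laminin and matrix genes, 3 were higher and 2 lower. Tgfbi, a secreted protein that links cells to collagen, read 8.78, 8.41 and 8.38 on the anterior and 7.37, 7.78 and 7.50 on the posterior control arrays (1.96-fold higher, adjusted p = 0.000823), and Col2a1, the collagen of notochord sheath and cartilage, was higher by 0.84 ± 0.12. Fn1, fibronectin, on which mesoderm migrates, was lower with 10.15, 10.47 and 10.52 on the anterior and 11.14, 11.02 and 11.56 on the posterior arrays (1.81-fold by its brightest probe), but its 3 other probes, at -0.33 to 0.00, were not called. Col26a1 differed by -0.96 on the log2 scale. Chst7, which adds sulfate to chondroitin chains, stood out among 31 kept glycan genes, of which 2 were higher (1 without anterior control replicate 2) and 2 lower (1 without anterior control replicate 2 or 3 or posterior control replicate 1). Chst7 read 7.85, 7.95 and 7.94 on the anterior and 9.96, 10.02 and 10.02 on the posterior arrays, 4.23-fold lower in anterior control parts (adjusted p = 4.67e-08). Hs6st1, which sulfates heparan chains that bind FGF and WNT proteins, was higher by 0.65 ± 0.12. Among 23 kept integrins and matrix receptors 1 was higher (0 without anterior control replicate 1) and 3 lower (1 lower without any anterior control array or posterior control replicate 3), and Alcam, an adhesion protein of the immunoglobulin family, alone kept its call in every fit without 1 array (-0.73 ± 0.12), though it lost it with all 12 arrays together (adjusted p = 0.0902, or 0.000582 without posterior Lhx1epiCKO replicate 3).

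Of 16 kept heart muscle genes 5 were higher, 1 was lower and 10 were not called. Myl7, the atrial myosin light chain and an early marker of the heart crescent, read between 9.74 and 10.39 on the 3 anterior and 7.84, 7.06 and 7.72 on the posterior control arrays, 5.66-fold higher in anterior control parts (adjusted p = 2.68e-06). Mef2c, a cardiac transcription factor, was higher by 0.78 ± 0.14. Gata5, a GATA factor of heart and endoderm, was above background on no posterior control array, with means of 7.39 on the anterior and 6.71 on the posterior arrays, and was at least 1.46-fold higher (adjusted p = 0.002). Of the 5 higher members these 3 kept the call in every fit without 1 array, and 3 were called without anterior control replicate 1 or posterior control replicate 2 (as labelled). Myl2, the ventricular light chain, was called lower (-0.55 ± 0.12, adjusted p = 0.0154) and lost the call without anterior control replicate 2 or 3 or posterior control replicate 1 or 3 (adjusted p up to 0.0824).

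Genes of the allantois and extraembryonic mesoderm had 8 of 28 kept members lower and 2 higher (1 higher in every fit without 1 array but that without the array labelled posterior control replicate 2). Tbx4, a T-box gene of the allantois, was above background on no anterior control array: it read 6.70, 6.66 and 6.58 on the anterior and 8.85, 9.76 and 8.60 on the posterior control arrays, at least 4.89-fold lower in anterior control parts (adjusted p = 1.11e-05). Foxf1, a forkhead gene of extraembryonic and lateral mesoderm, read 7.77, 7.91 and 8.09 on the anterior and 8.99, 8.70 and 8.89 on the posterior arrays (1.92-fold lower). Bmp4, the BMP of extraembryonic mesoderm, differed by -1.03 ± 0.14, the homeobox gene Msx1 by -1.05 ± 0.12 and Spin2c, a spindlin-family gene, by -1.39 ± 0.11. The remaining 18 were not called, and 5 of the 8 kept the call in every fit without 1 array, the count being 5 without anterior control replicate 1. Of 24 kept primitive blood genes, Lmo2, a cofactor of blood formation, was the only one called: its difference was -0.82 on the log2 scale (adjusted p = 0.014), with 9.60, 9.60 and 10.22 on the anterior and 10.53, 10.92 and 10.42 on the posterior arrays. Lmo2 lost the call without replicate 1 or 2 (as labelled) of either part (adjusted p up to 0.069). The embryonic globin gene Hbb-bh1 read 8.11, 8.01 and 8.19 on the anterior and 8.54, 10.10 and 8.13 on the posterior arrays, the high value falling on the array labelled posterior control replicate 2, and was not called (adjusted p = 0.227). Of 22 kept endothelial progenitor genes, 1 was higher and 2 lower (without anterior control replicate 1 or 2 or posterior control replicate 3, 1 was lower, and without posterior control replicate 1, 2 were higher).

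Cytoskeletal genes gave 3 higher and 3 lower calls of 42 kept. Pdlim4, whose PDZ and LIM domains bind actin fibres, read 10.26, 9.85 and 9.99 on the anterior and 11.76, 11.56 and 11.78 on the posterior control arrays, 3.18-fold lower in anterior control parts (adjusted p = 1.87e-06). Vim, vimentin, the intermediate filament of mesenchyme, was lower with 9.90, 9.88 and 10.05 on the anterior and 10.62, 10.48 and 10.57 on the posterior arrays (1.53-fold), and Anxa3, an annexin of membranes, differed by -1.03. With all 12 arrays fitted together, Pdlim4 (adjusted p = 0.446) and Vim (adjusted p = 0.0855) were not called, and both were called in that fit without posterior Lhx1epiCKO replicate 3 (adjusted p = 9.45e-08 and 0.0305). Pls3, plastin 3, an actin-bundling protein outside the list, was among the 20 probes of largest positive difference: it read 9.64, 9.61 and 9.73 on the anterior and 8.20, 8.23 and 8.22 on the posterior arrays (2.72-fold higher). The 3 lower members, and none of the 3 higher ones, kept the call in every fit without 1 array, and 1 was higher in each such fit but that without anterior control replicate 1, where 2 were.

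Genes of epiblast and pluripotency were split between the parts, 7 of 33 kept members higher and 6 lower. Slc7a3, a transporter of arginine and lysine, read 11.79, 12.06 and 11.31 on the anterior and 9.81, 9.80 and 9.83 on the posterior control arrays (3.75-fold higher, adjusted p = 4.28e-06). Utf1, a chromatin protein of embryonic stem cells, read 8.81, 9.43 and 9.06 on the anterior and 7.20, 7.28 and 7.62 on the posterior arrays (3.32-fold higher). Klf5, a factor of stem cell self-renewal, was lower with 8.64, 8.91 and 9.01 on the anterior and 10.08, 10.27 and 9.80 on the posterior arrays (2.29-fold). Pou5f1, the gene of OCT4, was lower (-0.76 on the log2 scale) by its brightest probe, with 11.57, 11.83 and 11.36 on the anterior and 12.15, 12.25 and 12.63 on the posterior arrays. This call was lost without anterior control replicate 3 (adjusted p = 0.0542), and the second Pou5f1 probe differed by -0.09 and was not called. The higher count fell to 4 without posterior control replicate 1. Of the 7 higher members 4, and of the 6 lower members 3, kept the call in every fit without 1 array.

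A group of genes was highest on the array of anterior control replicate 3. Elf5, a factor of trophoblast stem cells, read 6.82, 8.01 and 8.90 on the anterior and 6.65, 6.51 and 6.53 on the posterior control arrays, the posterior values not above background. It was at least 2.10-fold higher in anterior control parts (means 7.91 and 6.56, adjusted p = 0.0417), and lost the call without any single array except anterior control replicate 1 (adjusted p up to 0.135). Esrrb, a nuclear receptor of pluripotent and trophoblast stem cells, read 7.50, 8.31 and 9.22 on the anterior and 6.71, 6.98 and 7.0 on the posterior arrays (2.73-fold, adjusted p = 0.0113), and lost the call without posterior control replicate 1 (adjusted p = 0.0887). Dppa4, a chromatin protein of pluripotent cells, followed the same pattern with 7.48, 8.10 and 8.85 on the anterior and 6.80, 7.0 and 6.95 on the posterior arrays. Fabp3, a fatty acid carrier, read 8.64, 9.41 and 9.76 against 8.43, 7.79 and 7.86. Wnt7b, a WNT ligand of the chorion, read 6.98, 7.41 and 8.45 on the anterior and 6.78, 6.49 and 6.52 on the posterior arrays, at least 1.71-fold higher (means 7.61 and 6.60, adjusted p = 0.0435), and lost the call without anterior control replicate 3 or any posterior control array (adjusted p up to 0.138). Dppa4 was not called without posterior control replicate 1 (adjusted p = 0.0748), nor Fabp3 without posterior control replicate 2, as labelled (adjusted p = 0.0515). Over the 6 markers of trophoblast and extraembryonic ectoderm the summed signal was 9.55, 10.05 and 10.58 on the anterior and 9.36, 9.39 and 9.35 on the posterior arrays (log2), with 3, 4 and 4 markers detected on the anterior and 1, 2 and 2 on the posterior arrays. Of these 6 markers, Tpbpa and Prl3d1 were above background on no control array. The part of trophoblast and extraembryonic ectoderm in the pluripotency and DNA methylation genes named here was not tested.

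Dnmt3l, the partner of the de novo DNA methyltransferases, was the leading chromatin gene and also highest on anterior control replicate 3. It read 8.46, 8.82 and 9.23 on the anterior and 7.72, 7.27 and 7.55 on the posterior control arrays (2.50-fold higher, adjusted p = 0.000364), and kept the call in every fit without 1 array. Satb1, an organiser of chromatin loops, was higher by 0.77 ± 0.12. Sox21, a repressor of the SOX family that stands on the trophoblast list, read 9.09, 9.13 and 9.51 on the anterior and 7.77, 7.42 and 7.77 on the posterior arrays, 3.01-fold higher by its brightest probe, with a second probe at 0.12 that was not called. Of 37 kept genes of DNA methylation, histones and chromatin, 3 were higher and 0 lower (1 lower without posterior control replicate 3). On the trophoblast list 5 of 21 kept genes were higher (2 without posterior control replicate 1 or 2, as labelled, 3 without anterior or posterior control replicate 3) and 3 lower, the lower ones including Sct, the hormone precursor of secretin, which read 8.30, 8.12 and 7.81 on the anterior and 9.35, 9.80 and 9.26 on the posterior arrays (2.63-fold lower, adjusted p = 8.64e-05).

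**Figure D4:**
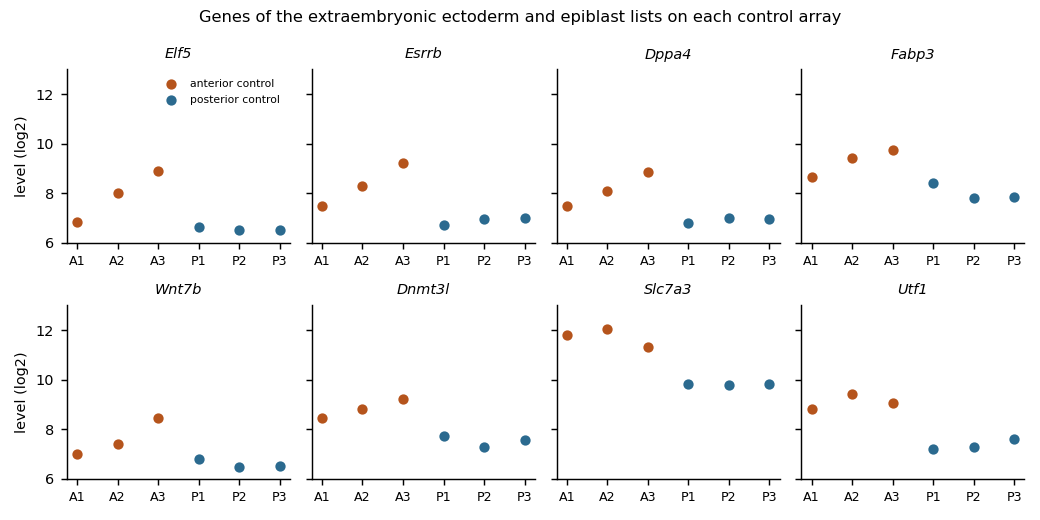
Levels (log2, y axes) of 8 genes on the anterior control arrays (A1 to A3, orange) and the posterior control arrays (P1 to P3, blue), the digits being replicate numbers. Elf5, Esrrb, Dppa4, Fabp3, Wnt7b and Dnmt3l are highest on A3, while Slc7a3 and Utf1 are highest on A2 and all 3 anterior points of both lie above the posterior points.

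Metabolic and housekeeping lists stayed near or under the share of all genes called. Of 20 kept glycolysis genes Eno2 alone was called (0.45 ± 0.11, adjusted p = 0.0265), and it lost the call without each of 5 arrays in turn (adjusted p up to 0.115). Of 38 genes of cholesterol and lipid, Fabp3 alone was called, and of 39 genes of amino acids and one-carbon units, Slc7a3 was higher and Pycr1, an enzyme of proline synthesis, was called lower (-0.42, adjusted p = 0.0347). Pycr1 lost the call without any single array except posterior control replicate 3 (adjusted p up to 0.157), and Fabp3 as given above. The higher counts of these lipid and amino acid lists were 2 each without anterior or posterior control replicate 3. Without posterior control replicate 3, 1 lipid gene was lower. Squalene epoxidase, Sqle, was not called at 0.50 ± 0.14 (adjusted p = 0.0612). Of mitochondrial genes Cs, citrate synthase, differed most, at 0.49 ± 0.17, and was not called (adjusted p = 0.145).

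Ion channels and pumps had 1 higher (0 without anterior control replicate 1 or 2 or posterior control replicate 3) and 3 lower calls of 28 kept, and all 3 lower genes handle calcium. Atp2a1, a calcium pump of the endoplasmic reticulum, read 7.53, 7.38 and 7.54 on the anterior and 8.19, 8.26 and 8.28 on the posterior control arrays (1.69-fold lower, adjusted p = 0.000571). Itpr1, the channel that releases calcium from that store, read 10.08, 10.05 and 9.88 on the anterior and 10.63, 10.76 and 10.86 on the posterior arrays (1.68-fold lower). Orai1, the plasma membrane channel that refills it, was lower, at -0.72 on the log2 scale (8.47, 8.45 and 8.33 on the anterior, 9.16, 9.32 and 8.92 on the posterior arrays). These 3 kept the call in every fit without 1 array. Of 38 kept cell cycle genes 1 was higher and 3 lower. Cdkn1c, the inhibitor of cell division and an imprinted gene, was higher by 0.53 (adjusted p = 0.013) and lost the call without anterior control replicate 1 or 2 or posterior control replicate 1. Cdkn1a, the p21 inhibitor of cell division, was lower (7.27, 7.19 and 7.07 on the anterior, 8.21, 8.12 and 7.89 on the posterior arrays, adjusted p = 0.000364), with a second probe at -0.31 that was not called. Ccnd2, a cyclin that opens the cycle, was also lower (-0.79 on the log2 scale). The insulin-like growth factor carrier Igfbp3 differed by -0.84, and the cell death gene Bok was higher by 0.79 ± 0.11 by its brightest probe, with a second probe at 0.07 that was not called. Of 33 kept G protein-coupled receptors and their regulators 0 were higher and 4 lower (1 without any anterior control array, 2 without the array labelled posterior control replicate 2), of which Aplnr, the apelin receptor of migrating mesoderm, alone kept the call in every fit without 1 array (-0.75 ± 0.13), though it lost it with all 12 arrays together (adjusted p = 0.316, or 0.00174 without posterior Lhx1epiCKO replicate 3). Of 34 kept imprinted genes 2 were higher and 4 lower, and none of them kept the call in every fit without 1 array. These counts were 0 and 1 without anterior control replicate 1, and 1 and 1 without posterior control replicate 1. They were 1 and 2 without posterior control replicate 2 (as labelled) or without replicate 3 of either part, and 1 and 3 without anterior control replicate 2.

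Some called genes lay outside all lists and were chosen after their values were seen. Rtl8c, a gene derived from a retrotransposon, read 8.40, 8.09 and 8.12 on the anterior and 10.31, 10.37 and 10.52 on the posterior control arrays, 4.59-fold lower in anterior control parts (adjusted p = 1.27e-07). Arg1, the arginase that splits arginine, read 7.97, 7.30 and 7.27 on the anterior and 9.35, 10.06 and 8.65 on the posterior arrays (3.58-fold lower), while Slc7a3, which imports arginine, was higher. Tcea3, an elongation factor of RNA polymerase II, differed by -1.65, Grsf1, which binds mitochondrial RNA, by -1.5, and Irf1, an interferon regulatory factor, by -1.49 on the log2 scale. Gna14, a G protein alpha subunit, read 8.23, 7.96 and 8.18 on the anterior and 9.88, 9.93 and 9.70 on the posterior arrays (3.27-fold lower). On the other side Eras, a RAS protein of embryonic stem cells, read 10.30, 10.20 and 9.88 on the anterior and 8.88, 8.90 and 8.90 on the posterior arrays (2.35-fold higher). Pkdcc, a kinase of the secretory pathway, was higher by 1.34 ± 0.17, Socs2, a brake on cytokine signalling, by 1.01 ± 0.11, and Kif1a, a motor for synaptic vesicle precursors, by 1.14 ± 0.13 with its brightest probe, its second probe at 0.19 not being called. Ppp1r1a, an inhibitor of protein phosphatase 1 and among the 20 probes of largest positive difference, read 11.24, 10.74 and 10.51 on the anterior and 9.55, 8.58 and 9.38 on the posterior arrays (3.15-fold higher, adjusted p = 0.000524).

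The same regional difference was measured in Lhx1epiCKO embryos, on arrays that share no sample with the controls. That comparison was made in a fit of all 12 arrays, so its spread was estimated with the control arrays too. It called 215 of the 15534 probes (1.38%), and 381 (2.45%) without posterior Lhx1epiCKO replicate 3. On that array 785 probes were over 1 log2 unit away from the rest of its group. In the same fits the control comparison called 516 and 908 probes, against 734 with the control arrays alone. Of the 360 probes higher in anterior control parts, 337 (93.6%) had a positive difference in Lhx1epiCKO embryos and 56 were called. Of the 374 lower probes, 358 (95.7%) had a negative difference and 140 were called. Over all kept probes these shares were 65.4% of those positive and 62% of those negative in controls. Without posterior Lhx1epiCKO replicate 3 the called probes had the same direction in 98.1% and 97.6%, and 107 and 178 were called. The median difference of the higher probes was 0.58 in control and 0.35 in Lhx1epiCKO embryos, and that of the lower probes -0.72 in control and -0.54 in Lhx1epiCKO embryos. The probes were chosen in controls, so nothing about the genotypes is read from these medians. For genes chosen after their values were seen, Fgf17 differed by -2.20 in control and -2.04 in Lhx1epiCKO embryos, Chst7 by -2.08 and -1.92, and Eras by 1.23 and 1.18, in the same order. Trh differed by 1.29 in control and 0.33 in Lhx1epiCKO embryos (0.58 without posterior Lhx1epiCKO replicate 3). Meox1, a homeobox gene of somites, differed by -1.58 in control and 0.10 in Lhx1epiCKO embryos (0.17 without that array). Pdlim4 differed by -1.67 in control and 0.40 in Lhx1epiCKO embryos, where it was -1.13 without that array. None of these 6 genes was called in the test of the difference itself, where the adjusted p was 0.46 for Meox1 and 0.98 or more for the others.

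**Figure D5:**
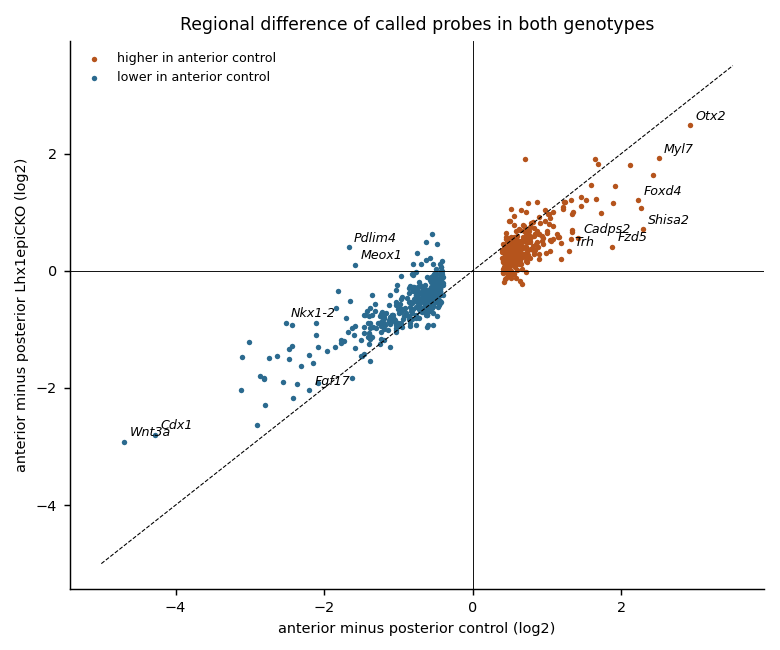
Difference between anterior and posterior parts in control embryos (log2, x axis) and in Lhx1epiCKO embryos (log2, y axis) for the 734 called probes, orange where higher and blue where lower in anterior control parts. The dashed line marks equal differences. Of the orange points 337 of 360 lie above 0 and of the blue points 358 of 374 lie below 0 on the y axis.

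Whether the regional difference itself differed between the genotypes was tested with the interaction of region and genotype in a limma fit of all 12 arrays. It called 0 of 15534 probes (0%), with 518 at an unadjusted p under 0.05. The smallest adjusted p of 0.0557 belonged to Fzd5 and Shisa2. Fzd5 differed between the parts by 1.88 in control and 0.41 in Lhx1epiCKO embryos (interaction 1.47 ± 0.20), and Shisa2 by 2.29 in control and 0.71 in Lhx1epiCKO embryos (1.58 ± 0.22). Both passed, with Gna14, when posterior Lhx1epiCKO replicate 3 was left out, which gave 3 calls, and Fzd5 passed without anterior control replicate 3 and with array weights, which gave 1 call each.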

How the data were processed

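The authors' deposited table holds normalized log2 expression values with a detection p-value per probe and array, also deposited by the authors. GenomeStudio and limma are named in the submitters' processing notes. The normalization was not given in the sources used here. Array medians ran from 6.81 to 6.83. A second deposited table held the same values within 5.0e-09. Names were taken from the file and the platform annotation, and 324 probes on which these differed were tested but not named.

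The values were fitted without further scaling in R 4.3.3 with limma 3.58.1 (lmFit, eBayes, 4 residual and 9.18 prior degrees of freedom). The 6 control arrays were fitted alone, with 1 mean per group and no covariate. Differences are anterior minus posterior on the log2 scale, and folds give the larger over the smaller level. A call is a two-sided Benjamini-Hochberg adjusted p under 0.05 over all kept probes. A gene is represented by its brightest probe. Where a part was above background on none of its 3 arrays, the fold is a lower bound set against the lowest signal of detected probes. It takes no account of sampling error. The interaction and the Lhx1epiCKO comparison used a fit of all 12 arrays. In simulated data with 50 changed probes per size among 15534, 56% of differences of 0.5 and 100% of differences of 1 or more were recovered, with 4 false calls. The simulated noise was normal and independent between arrays, with no background floor and no array that stood apart. Recovery on the real arrays, above all for dim probes, can therefore be lower.

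The members and lists were chosen with earlier results of these data known. Named are, for each list, up to 5 called genes per direction and up to 2 not called, by largest difference. Also named are the 20 probes of largest difference in each direction among called probes whose values do not overlap between the parts. Any other gene is marked in the text as picked with its values known. Not every gene this rule names is reported here. Markers of regions and tissues named above are a separate list. Alternatives changed the arrays fitted, the filter, the scaling, the weights, the variance prior, a floor on dim values and the summary of probes. Promoters are from RefSeq; the first listed per gene was used. Replicates with the same number did not deviate together: the correlations of their deviations were 0, -0.04 and 0.03.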

Additional observations from a re-analysis of the deposited data

How the results depend on the processing

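All the settings here were planned, and each changed 1 choice. Leaving out 1 array at a time gave 427 to 638 called probes, 177 to 309 higher and 250 to 329 lower. Requiring a difference of at least 1 left 163, 46 of them higher and 117 lower. With all 12 arrays fitted together 232 probes were higher, and with array weights 583. The other filters, scalings, variance prior and floor kept each of the 3 counts within 1.5 times. The interaction gave 0 to 3 calls without 1 array at a time (3 without posterior Lhx1epiCKO replicate 3, 1 without anterior control replicate 3) and 1 with array weights. With the replicate number as a block (replicate block) 822 probes were called, 430 higher and 392 lower, and of the named called genes 1, Rarg, was lost (adjusted p = 0.0533). The numbers are not known to pair the samples. Of 125 named called genes 103 kept the call under every alternative in which they were tested, other than the threshold on the difference. Genes not above background on every control array, such as Tbx4 and Cdx1, were not tested under the filter that required this. Of named genes not called, Hesx1, Lefty2, Dll3, Foxa2, Sqle and Cs were each called under at least 1 alternative. Examples are Foxa2 with array weights (adjusted p = 0.0386), Dll3 with an intensity trend (0.0413) and Sqle with the replicate block (0.0211). The direction turned for 1 named gene that was not called, Lhx1, which ran from -0.17 (without the array labelled posterior control replicate 2) to 0.65 without 1 array. Dim probes limit what was seen: 32 of the higher probes were above background on no posterior and 19 of the lower on no anterior control array. Changes of 0.5 were recovered in 56% of simulated probes, and the simulation had no background floor.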
